A study of Homo sapiens with 12 samples.

Results

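Described here are 40 genes of the antioxidant programme governed by the transcription factor NRF2. They were chosen by symbol from the 26364 rows of the deposited count table, with earlier results of these data known. They cover the NRF2 regulators, heme and iron handling, glutathione, thioredoxin, NADPH supply, detoxification and efflux. All 40 symbols had a row and 39 passed the filter on low counts, beside 14184 genes tested in all. GPX2, an intestinal glutathione peroxidase, was the exception, with 0 to 4 reads in each library. The 12 RNA-seq libraries came from MDA-MB-231, an established human breast cancer line of mesenchymal character. Of 4 groups of 3 wells, 1 received 1 µM dexamethasone (DEX, a synthetic glucocorticoid that activates the glucocorticoid receptor) together with 8 µM SH4-54 (a small molecule made to inhibit STAT3 and STAT5), 1 received 8 µM SH4-54, 1 received 1 µM DEX and 1 received no drug. Treatment lasted 24 h in each case, the labels name no genetic change, and a vehicle for the wells without drug is not named in the labels. The wells were parallel cultures of 1 line, so each p-value reflects well-to-well spread and not that between lines or tumours.

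NRF2, encoded by NFE2L2, is held at a low level by KEAP1, an adaptor that hands it to a ubiquitin ligase for degradation. Oxidants and electrophiles modify cysteines of KEAP1, NRF2 then accumulates, pairs with a small MAF protein and binds antioxidant response elements in the promoters and enhancers of its target genes. Much of this control acts on the protein, so the NFE2L2 transcript is not itself a measure of NRF2 activity. The targets supply glutathione and thioredoxin with their NADPH, detoxify quinones and carbonyls, degrade heme and store the iron it releases.

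Short promoter stretches that hold the core letters of the antioxidant response element are shown for 5 of the genes whose transcripts were higher with SH4-54 in at least 1 of the comparisons below. The sequences are RefSeq's, on GRCh38.p14, 29 bases each, read 5′ to 3′ on the strand of the gene, with the matched letters in capitals.
GCLM: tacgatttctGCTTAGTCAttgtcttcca
KEAP1: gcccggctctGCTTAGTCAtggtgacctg
TXNRD1: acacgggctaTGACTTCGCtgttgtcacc
MAFF: cttccaggggGCGGGGTCAtacgggggcg
ME1: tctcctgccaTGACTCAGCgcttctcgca
They lie at chr1:93909446-93909474 on the minus strand, chr19:10502784-10502812 on the minus strand, chr12:104215670-104215698 on the plus strand, chr22:38201862-38201890 on the plus strand and chr6:83431170-83431198 on the minus strand, in the order printed. The first matched base lies 34, 31, 99, 122 and 137 bases upstream of the annotated start. By GENCODE release 29, the stretches of GCLM, KEAP1 and MAFF overlap an exon of a longer transcript of the same gene, and those of TXNRD1 and ME1 overlap no exon. GCLM and KEAP1 hold the same 9 letters, GCTTAGTCA. The match of ME1 overlaps the AP-1 letters TGACTCA. The motif searched was TGACNNNGC or its reverse complement GCNNNGTCA, in windows of 250 bases before to 50 bases after each start. Of the 40 symbols 30 had a window, and 10 of these 30 (33.3%) held a match, against 4384 of 27305 symbols (16.1%) in the whole table of promoters. Of the genes not shown, PIR, CBR1, EPHX1, PGD and GPX2 also held a match. CBR1, EPHX1 and PGD were not called higher with SH4-54 alone or added to DEX in the full fit, and GPX2 was not tested. When SH4-54 was added to DEX, NQO1, SQSTM1, FTL, SRXN1, MAFG, TXN, TKT, AKR1C1, AKR1C2, OSGIN1 and ABCC2 were called higher. Their windows held no match. The window of UGDH, called higher with SH4-54 alone, held none either. HMOX1, FTH1, SLC7A11 and ABCC1, also called higher, had no window. Whether the letters go with the response to SH4-54 was not tested. A match describes letters and not binding, and response elements outside these windows were not searched.

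Library totals ran from 25577213 to 35758236 reads counted in genes, and the 39 genes took 0.739% to 0.991% of them. The mesenchymal markers VIM, CD44, CAV1 and AXL were at 274 CPM (read count relative to the library's total, scaled by TMM) or above in every library. The hormone receptors ESR1 and PGR were at most 0.45 CPM, while ERBB2 (73.8 to 90.4 CPM), EPCAM (17.3 to 23.2) and CDH1 (5.29 to 15.1) were not near 0. Markers of leukocytes, endothelium and fibroblast collagen (PTPRC, PECAM1, COL1A1, COL1A2) were at most 1.56 CPM, and PDGFRB was at 6.96 to 12.2. The wells of the combination group differed from one another. The heat-shock chaperone gene HSPA6 was at 483 CPM in replicate 2 against 150 and 156 CPM in replicates 1 and 3. HSPA6 was at 19.4 to 27.1 CPM with SH4-54, 0.232 to 0.641 with DEX and 0.265 to 0.501 with no drug. Of the 39 genes, 16 were highest within the combination group in replicate 2, 13 in replicate 1 and 10 in replicate 3. Replicate 3 was the lowest of that group for 21 genes, replicate 2 for 12 and replicate 1 for 6. The same counts over all tested genes are not given here, so those of the 39 genes have no scale. Wells were lysed whole, so fewer expressing cells and less RNA per cell cannot be told apart.

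SH4-54 raised a small set of NRF2 genes and lowered none past the threshold, and more of them, as of all genes, passed when it was added to DEX. With SH4-54 alone, 7 of 39 genes (17.9%) were higher than with no drug, where 0.268% of all tested genes were higher (edgeR's quasi-likelihood test, Benjamini-Hochberg adjusted p below 0.05). No gene of the 39 was lower, where 0.331% of all tested genes were, and none reached an unadjusted p below 0.05 or was lower in DESeq2. In cells with DEX, adding SH4-54 gave 21 of 39 genes higher (53.8%) and 1 lower (2.56%), beside 13% and 13.5% of all tested genes. The median log2 fold change of the 39 genes was 0.138 for SH4-54 against no drug and 0.164 for both compounds against DEX, beside -0.004 and 0.005 over all tested genes.

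DEX moved the NRF2 genes both ways. Against no drug, 10 of 39 were higher (25.6%) and 16 lower (41%), beside 21.9% and 23.2% of all tested genes, with a median of -0.074 against -0.011 over all. The share of higher genes was thus near that of all tested genes. With both compounds against no drug, 21 of 39 were higher (53.8%) and 7 lower (17.9%), beside 21.1% and 21.6% of all tested genes. Both compounds against SH4-54 alone gave 11 higher and 11 lower (28.2% each), beside 20.1% and 20.3%, a modest excess in each direction. The median was 0.112 for both compounds against no drug and 0.009 against SH4-54. Without combination replicate 2, the counts higher and lower were 17 and 1 against DEX, 18 and 7 against no drug, and 10 and 11 against SH4-54. The shares of all tested genes in that fit were 6.51% and 9.77%, 19.2% and 19.4%, and 17.8% and 18.8%, in the same order.

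**Figure D1:**
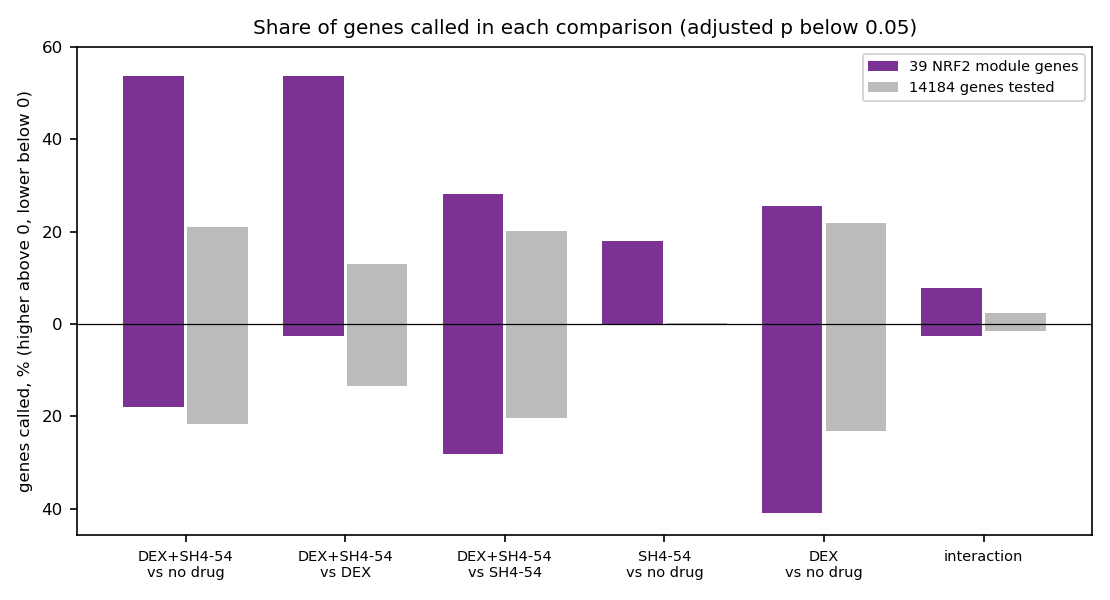
Share of genes called (adjusted p below 0.05) in each comparison, in % of the 39 NRF2 genes (purple) and of the 14184 genes tested (grey), with higher genes above 0 and lower genes below. Both compounds against DEX show 53.8% of the NRF2 genes higher and 2.56% lower, and SH4-54 against no drug shows 17.9% higher and none lower.

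**Figure D2:**
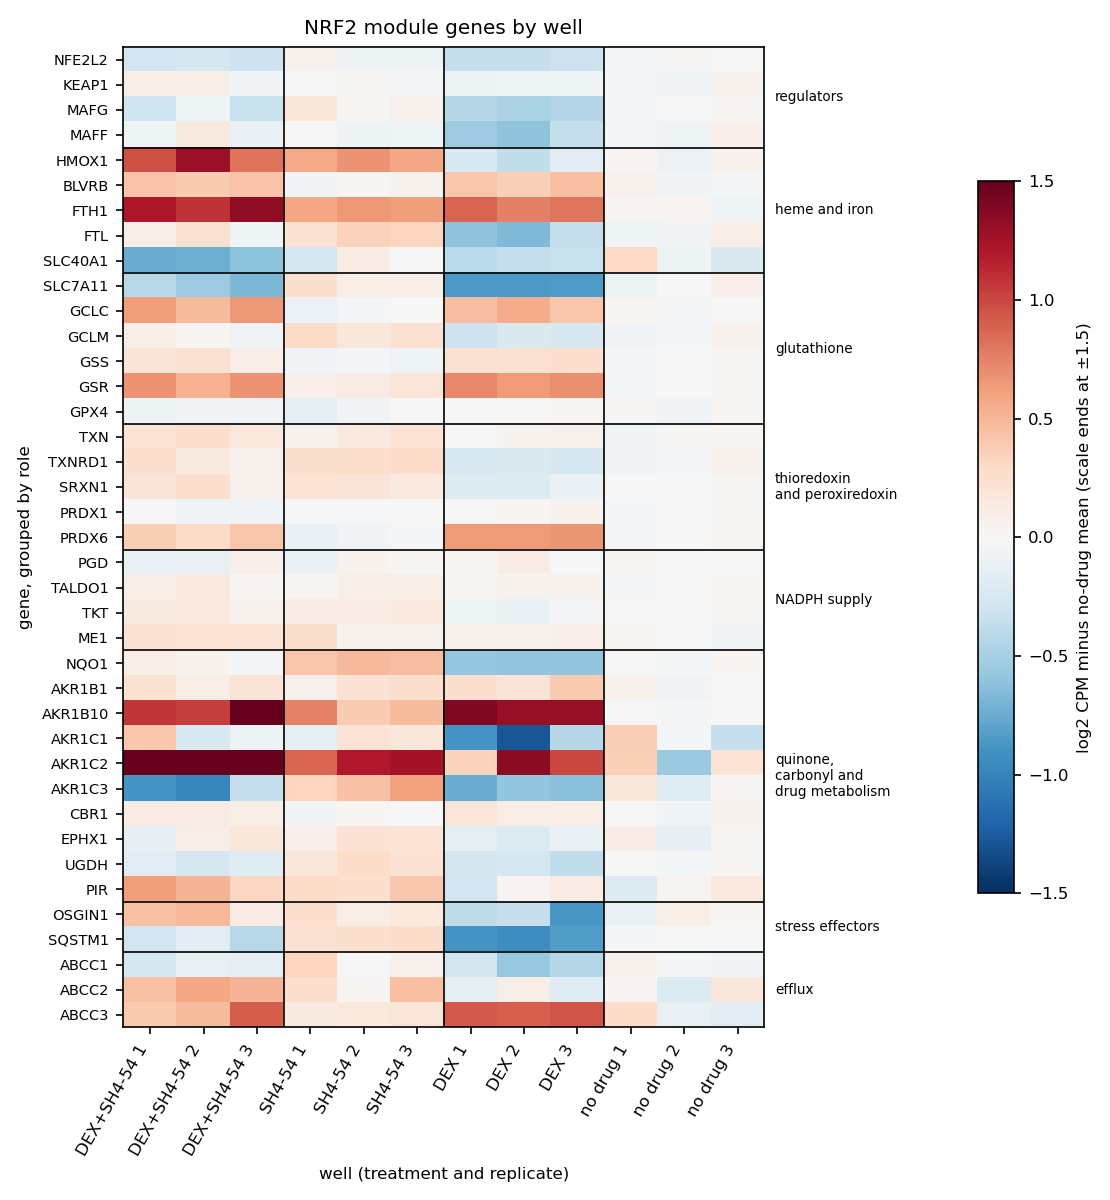
Level of the 39 tested NRF2 genes (rows, grouped by role) in each of the 12 wells (columns), as log2 CPM minus the mean of the 3 wells with no drug; colours saturate at 1.5 on either side. FTH1 and AKR1B10 are above the wells without drug in all 3 treatments, and SQSTM1 and SLC7A11 are above them with SH4-54 and below them with DEX.

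Among the regulators, the transcripts for NRF2 and its MAF partners were lower with DEX and were not called with SH4-54 alone. NFE2L2 had 101, 103 and 99.8 CPM with both compounds, 129, 117 and 117 with SH4-54, 96.6, 96.7 and 99.3 with DEX and 122, 125 and 123 with no drug. All 3 wells of DEX and all 3 of the combination were below every well of SH4-54 and of no drug. The log2 fold change of NFE2L2 was -0.34 ± 0.038 (adjusted p = 3.57e-06) for DEX and -0.28 ± 0.038 (adjusted p = 2.75e-05) for both compounds against no drug, but -0.03 ± 0.038 (adjusted p = 0.811) for SH4-54 and 0.06 ± 0.038 (adjusted p = 0.286) for both compounds against DEX. KEAP1 had 140.5, 141 and 129 CPM with both compounds, 132, 134 and 129.5 with SH4-54, 125, 126 and 126 with DEX and 131, 129 and 137 with no drug. The KEAP1 wells without drug overlapped those with SH4-54, and the combination lay above DEX. KEAP1 was 8.72% higher with both compounds than with DEX (0.12 ± 0.036 (adjusted p = 0.0245)), a call lost without either of combination replicates 1 and 2 (adjusted p = 0.139 and 0.145) and without any 1 of the DEX wells (0.0832 to 0.0938).

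MAFF had 29.1, 33.3 and 28.3 CPM with both compounds, 30.3, 28.9 and 29 with SH4-54, 20.9, 20 and 23.7 with DEX and 30, 29.2 and 32.2 with no drug. MAFF is a small MAF partner of NRF2. Its DEX wells were the lowest of the 12, and the other groups overlapped one another. MAFF fell by 29.4% with DEX (-0.5 ± 0.071 (adjusted p = 3.83e-05)), was 40.3% higher with both compounds than with DEX (0.49 ± 0.071 (adjusted p = 0.000276)), and changed by -0.05 ± 0.069 (adjusted p = 0.81) with SH4-54 alone. MAFG, a second small MAF gene, likewise fell with DEX (-0.45 ± 0.062 (adjusted p = 3.05e-05)) and was higher with both compounds than with DEX (0.22 ± 0.062 (adjusted p = 0.0185)). That second MAFG value was 0.118 (adjusted p = 0.127) without combination replicate 2, and the call was lost without any 1 of the DEX wells (0.0537 to 0.0854).

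Of 5 heme and iron genes, HMOX1 and FTH1 were higher with SH4-54 in both settings. HMOX1 encodes the inducible heme oxygenase, which opens heme and frees its iron. HMOX1 had 29.8, 37.3 and 27 CPM with both compounds, 22.8, 24.4 and 23 with SH4-54, 13.1, 11.9 and 13.7 with DEX and 15.7, 14.5 and 15.9 with no drug. The combination wells were all above the SH4-54 wells, which were all above both remaining groups. HMOX1 was 52.4% higher with SH4-54 than with no drug (0.61 ± 0.098 (adjusted p = 0.00999)) and 143% higher with both compounds than with DEX (1.28 ± 0.099 (adjusted p = 1.83e-06)). DEX alone gave -0.25 ± 0.1 (adjusted p = 0.0577) for HMOX1, not a call, but HMOX1 was called lower with DEX without a count filter (adjusted p = 0.0267), in a fit of the compared groups alone (0.00897) and without combination replicate 2 (0.0087) or 3 (0.0297). DEX on top of SH4-54 gave 0.42 ± 0.093 (adjusted p = 0.0023). HMOX1 was highest in combination replicate 2, the well with the most HSPA6, and the part of the heat-shock genes in this result was not tested. Without that well HMOX1 was at 1.12 (adjusted p = 2.05e-07) for both compounds against DEX and at 0.272 (adjusted p = 0.0052) against SH4-54. The HMOX1 call for SH4-54 alone was lost without no-drug replicate 2 (0.566, adjusted p = 0.072).

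The ferritin subunits, which together form the shell that stores iron, differed in their response to DEX. FTH1 had 674, 616 and 734 CPM with both compounds, 437, 457 and 451 with SH4-54, 534, 491 and 508 with DEX and 298, 298 and 279.6 with no drug. FTH1, the heavy chain that oxidises iron, was highest with both compounds, then with DEX, then with SH4-54 and lowest with no drug, and the 4 groups did not overlap. FTH1 was 53.6% higher with SH4-54 (0.62 ± 0.053 (adjusted p = 3.7e-05)), 75.1% higher with DEX (0.81 ± 0.053 (adjusted p = 1.05e-08)) and 131% higher with both (1.21 ± 0.053 (adjusted p = 2.17e-10)), each against no drug. Adding SH4-54 to DEX raised FTH1 by 32% (0.4 ± 0.052 (adjusted p = 0.000125)). FTL had 2044, 2232 and 1823 CPM with both compounds, 2215, 2422 and 2379 with SH4-54, 1257, 1205 and 1493 with DEX and 1832, 1857 and 2047 with no drug. FTL, the light chain, was lowest in the DEX wells, and its combination wells overlapped those of SH4-54 and of no drug. FTL fell by 31.1% with DEX (-0.54 ± 0.079 (adjusted p = 5.89e-05)) and was 54.3% higher with both compounds than with DEX (0.63 ± 0.079 (adjusted p = 0.000104)). With SH4-54 alone FTL was at 0.29 ± 0.079 (adjusted p = 0.129), its wells not overlapping those without drug, and it was called higher without a count filter (adjusted p = 0.0058) and in a fit of the compared groups alone (0.0239). Ferritin genes have many processed pseudogenes. The 2 rows named FTH1P held 21.4 to 29.2 CPM with both compounds, 5.22 to 22.4 with SH4-54, 16.8 to 21.2 with DEX and 11.8 to 13.6 with no drug, the lowest value being that of SH4-54 replicate 2.

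BLVRB, a biliverdin reductase that acts downstream of heme oxygenase, rose with DEX (0.41 ± 0.044 (adjusted p = 2.57e-06)) and was at 0.01 ± 0.045 (adjusted p = 0.936) with SH4-54 alone. SLC40A1, the iron exporter ferroportin, was at 4.55 to 4.99 CPM with both compounds, 6.43 to 8.26 with SH4-54, 5.8 to 6.07 with DEX and 6.57 to 9.42 with no drug. SLC40A1 was lower with DEX (-0.38 ± 0.13 (adjusted p = 0.023)) and with both compounds (-0.72 ± 0.13 (adjusted p = 0.000416)) than with no drug. The DEX value of SLC40A1 was -0.216 (adjusted p = 0.149) without no-drug replicate 1, and the call was also lost without any 1 of the DEX wells (0.0575 to 0.0735). Both compounds against DEX gave -0.33 ± 0.13 (adjusted p = 0.0829) for SLC40A1, without overlap. That value was called lower in a fit of the compared groups alone (0.0418) and without no-drug replicate 1 (0.0347). With both compounds against no drug, 3 of the 5 heme and iron genes (FTH1, HMOX1 and BLVRB) were thus higher and SLC40A1 was lower. The shares of all tested genes were 21.1% and 21.6%. FTL, the more abundant ferritin transcript by read count, was at 0.09 ± 0.079 (adjusted p = 0.389) in that comparison.

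Under DEX, 3 of the 6 tested glutathione genes were higher and 2 lower, beside 21.9% and 23.2% of all tested genes. The subunits of glutamate-cysteine ligase went opposite ways. SLC7A11 had 469, 427 and 392 CPM with both compounds, 735, 666 and 665 with SH4-54, 344, 342 and 345 with DEX and 592, 623 and 657 with no drug. SLC7A11 is the transport subunit that brings in cystine, from which the cysteine of glutathione is made. The DEX wells were the lowest, the combination wells lay above them, and the wells of SH4-54 and of no drug were higher than both. SLC7A11 fell by 44.9% with DEX (-0.86 ± 0.058 (adjusted p = 1.41e-08)), was at 0.14 ± 0.057 (adjusted p = 0.309) with SH4-54 alone, and was 24.7% higher with both compounds than with DEX (0.32 ± 0.058 (adjusted p = 0.00127)). It remained below no drug with both compounds (-0.54 ± 0.057 (adjusted p = 2.57e-06)). GCLM had 197, 189.6 and 179 CPM with both compounds, 225, 208 and 217 with SH4-54, 149.6, 160 and 157 with DEX and 180.2, 183 and 193 with no drug. GCLM, the modifier subunit of glutamate-cysteine ligase, was highest in the SH4-54 wells and lowest in the DEX wells. GCLM was 17.1% higher with SH4-54 (0.23 ± 0.042 (adjusted p = 0.0203)), fell by 15.9% with DEX (-0.25 ± 0.042 (adjusted p = 0.000198)) and was 21.3% higher with both compounds than with DEX (0.28 ± 0.042 (adjusted p = 0.000387)). Its call for SH4-54 alone was lost without SH4-54 replicate 1 or 3 or no-drug replicate 1 or 2 (adjusted p = 0.0744 to 0.125), and with the replicate number as a block (0.0537).

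The catalytic subunit GCLC, the synthase GSS and the reductase GSR moved the other way. GSR had 129, 116 and 129 CPM with both compounds, 84.8, 88.1 and 91.2 with SH4-54, 133, 125 and 131 with DEX and 79.6, 80.3 and 81.9 with no drug. GSR returns oxidised glutathione to its reduced form with NADPH. All 6 wells that had DEX were above all 6 that did not. GSR was 60.8% higher with DEX (0.69 ± 0.044 (adjusted p = 8.89e-09)) and 54.9% higher with both compounds (0.63 ± 0.044 (adjusted p = 2.83e-08)) than with no drug, while SH4-54 alone gave 0.13 ± 0.044 (adjusted p = 0.235). GCLC rose with DEX (0.48 ± 0.051 (adjusted p = 1.76e-06)) and with both compounds (0.59 ± 0.05 (adjusted p = 2.61e-07)), and GSS rose with DEX (0.23 ± 0.034 (adjusted p = 4.83e-05)). SH4-54 alone gave -0.04 ± 0.051 (adjusted p = 0.802) for GCLC and -0.04 ± 0.034 (adjusted p = 0.624) for GSS. GPX4, which reduces lipid peroxides with glutathione, was not called in any of the 6 comparisons, its fitted changes lying between -0.06 and 0.01.

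In the thioredoxin branch, TXNRD1 was higher with SH4-54 and PRDX6 with DEX. TXNRD1 had 961, 891 and 850.2 CPM with both compounds, 962, 976 and 990.4 with SH4-54, 691, 699 and 688 with DEX and 786, 803 and 845 with no drug. TXNRD1 is the reductase that passes electrons from NADPH to thioredoxin. The DEX wells were the lowest, and the combination wells were above those without drug. TXNRD1 was 20.4% higher with SH4-54 (0.27 ± 0.041 (adjusted p = 0.00624)), fell by 14.6% with DEX (-0.23 ± 0.041 (adjusted p = 0.000338)) and was 30% higher with both compounds than with DEX (0.38 ± 0.041 (adjusted p = 2.91e-05)). PRDX6 had 447, 422 and 461 CPM with both compounds, 322, 335 and 343 with SH4-54, 539.8, 538 and 547 with DEX and 339, 346 and 353 with no drug. PRDX6, a peroxiredoxin that draws on glutathione, was highest in the DEX wells and intermediate with both compounds, and the wells of SH4-54 and of no drug overlapped. PRDX6 was 56.6% higher with DEX (0.65 ± 0.036 (adjusted p = 1.63e-09)). In the full fit it was the single gene of the 39 called lower with both compounds than with DEX, by a log2 fold change of -0.29 ± 0.035 (adjusted p = 8.91e-05).

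SRXN1, which repairs overoxidised peroxiredoxins, fell with DEX (-0.17 ± 0.044 (adjusted p = 0.00522)) and was higher with both compounds than with DEX (0.34 ± 0.044 (adjusted p = 0.000109)). With SH4-54 alone SRXN1 was at 0.18 ± 0.044 (adjusted p = 0.085) with no overlap between the wells compared, and it was called in 5 alternative fits, DESeq2 among them (adjusted p = 0.0118 to 0.0257). TXN, thioredoxin itself, was at 0.14 ± 0.039 (adjusted p = 0.14) with SH4-54 alone (adjusted p = 0.0488 by DESeq2) and was higher with both compounds than with DEX (0.16 ± 0.039 (adjusted p = 0.00675)). PRDX1, an abundant peroxiredoxin, was not called in any comparison, with fitted changes of -0.06 to 0.02.

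Of the 4 genes grouped under NADPH supply, none was called with either compound alone. Of all tested genes, 21.9% were higher and 23.2% lower with DEX, and 0.268% and 0.331% with SH4-54. With both compounds against no drug 3 were higher, beside 21.1% of all tested genes. Of 8 other NADPH genes, 2 were higher (25%) and 3 lower (37.5%) with DEX against no drug. With both compounds against no drug, 1 of the 8 was higher (12.5%) and 3 lower (37.5%), beside 21.1% and 21.6% of all tested genes. PGD and TALDO1 (pentose phosphate pathway), TKT (transketolase, same pathway) and ME1 (malic enzyme) lay between 0 and 0.13 in log2 fold change with SH4-54 and between -0.06 and 0.07 with DEX, though TKT was called with SH4-54 by DESeq2 (adjusted p = 0.0135) and without combination replicate 2 (0.0431) or 3 (0.0287). ME1 had 41.6, 41.4 and 41.3 CPM with both compounds, against 36.8, 35.8 and 34.8 CPM with no drug, and was 15.6% higher (0.21 ± 0.05 (adjusted p = 0.0035)). TKT was 8.16% higher in that comparison (0.11 ± 0.031 (adjusted p = 0.00767)), and both calls held in all 12 fits that left out a library. TKT had 418, 421 and 399 CPM with both compounds, against 366, 355 and 375 CPM with DEX, with no overlap (0.17 ± 0.031 (adjusted p = 0.00106)). ME1 was called in the same comparison (0.14 ± 0.05 (adjusted p = 0.048)), but the call was lost in 9 of the 12 fits that left out a library (adjusted p up to 0.162). PGD was not called in any comparison of the full fit (without combination replicate 3 it was lower with both compounds than with DEX, adjusted p = 0.0174), and TALDO1 was called only for both compounds against no drug (0.09 ± 0.032 (adjusted p = 0.0283)), a call lost without combination replicate 1 or 2 or no-drug replicate 1 or 2 (0.064 to 0.0988).

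Of the 10 detoxification genes, NQO1 moved in opposite directions with the compounds given singly. NQO1 had 346, 338 and 320 CPM with both compounds, 434, 455 and 450.3 with SH4-54, 218, 217 and 217 with DEX and 324, 321 and 333 with no drug. NQO1 reduces quinones by the transfer of electrons in pairs, so that no semiquinone forms. The SH4-54 wells were the highest and the DEX wells the lowest, and the combination wells overlapped those without drug. NQO1 was 36.8% higher with SH4-54 (0.45 ± 0.033 (adjusted p = 1.27e-05)), fell by 33.3% with DEX (-0.59 ± 0.033 (adjusted p = 2.08e-09)) and was 53.9% higher with both compounds than with DEX (0.62 ± 0.033 (adjusted p = 5.84e-08)). Both compounds against no drug gave 0.04 ± 0.033 (adjusted p = 0.395) for NQO1. UGDH had 117, 111 and 116 CPM with both compounds, 149, 159.5 and 153 with SH4-54, 109, 110.3 and 102 with DEX and 132, 129.9 and 134 with no drug. UGDH makes the UDP-glucuronate used in glucuronidation. Its SH4-54 wells were the highest, and both groups with DEX were below the wells without drug. UGDH was 16.7% higher with SH4-54 (0.22 ± 0.037 (adjusted p = 0.0106)), lower with DEX (-0.3 ± 0.037 (adjusted p = 1.1e-05)) and lower with both compounds than with no drug (-0.2 ± 0.037 (adjusted p = 0.00048)). Its call for SH4-54 was lost without SH4-54 replicate 2 (adjusted p = 0.0678) or no-drug replicate 2 (0.0861).

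The aldo-keto reductases, which reduce carbonyls and steroids with NADPH, did not move as a group. AKR1B10 had 5.56, 5.43 and 7.45 CPM with both compounds, 4.43, 3.45 and 3.67 with SH4-54, 6.93, 6.54 and 6.56 with DEX and 2.66, 2.62 and 2.67 with no drug. Every treated well was above every well without drug. AKR1B10 was 152% higher with DEX (1.33 ± 0.14 (adjusted p = 1.41e-06)) and 134% higher with both compounds (1.22 ± 0.14 (adjusted p = 4.16e-06)), and at 0.54 ± 0.14 (adjusted p = 0.123) with SH4-54 (called without combination replicate 3, adjusted p = 0.0347). AKR1C1 had 2.53, 1.63 and 1.82 CPM with both compounds, 1.75, 2.21 and 2.16 with SH4-54, 1.04, 0.788 and 1.43 with DEX and 2.47, 1.89 and 1.51 with no drug. The DEX wells were below all others, and the remaining groups overlapped. AKR1C1 fell by 44.9% with DEX (-0.86 ± 0.25 (adjusted p = 0.011)) and was 82.5% higher with both compounds than with DEX (0.87 ± 0.25 (adjusted p = 0.0194)). Both AKR1C1 calls rested on 23 to 79 reads a library. The first was lost without DEX replicate 2 or no-drug replicate 1 (adjusted p = 0.067 and 0.0653), and the second without DEX replicate 1 or 2 or combination replicate 1 (0.0591 to 0.101).

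AKR1C2 had 1.36, 0.906 and 1.04 CPM with both compounds, 0.447, 0.563 and 0.579 with SH4-54, 0.31, 0.617 and 0.49 with DEX and 0.313, 0.166 and 0.281 with no drug. AKR1C2 had only 5 to 37 reads a library, and its combination wells were the highest. AKR1C2 was 128% higher with both compounds than with DEX (1.19 ± 0.27 (adjusted p = 0.00543)). With SH4-54 alone it was at 1.04 ± 0.35 (adjusted p = 0.212), its wells not overlapping those without drug. With DEX alone it was at 0.9 ± 0.35 (adjusted p = 0.0514), not a call. AKR1C2 was called higher with DEX under DESeq2's size factors (0.0495) and without combination replicate 1 (0.0438) or 2 (0.0466). It was also called there without DEX replicate 1 (1.132, adjusted p = 0.0211). Both compounds against no drug gave 2.09 ± 0.3 (adjusted p = 5.24e-05) for AKR1C2. Its SH4-54 change with DEX minus that without was 0.15 ± 0.47 (adjusted p = 0.901). AKR1C3 had 3.38, 3.15 and 4.88 CPM with both compounds, 7.8, 8.45 and 9.57 with SH4-54, 3.71, 4.14 and 4.03 with DEX and 6.98, 5.47 and 6.33 with no drug. The 6 wells with DEX were below the 6 without. AKR1C3 fell by 36.6% with DEX (-0.66 ± 0.15 (adjusted p = 0.00238)) and by 55.1% when DEX was added to SH4-54 (-1.16 ± 0.15 (adjusted p = 1.88e-05)), while SH4-54 alone gave 0.46 ± 0.14 (adjusted p = 0.173). The AKR1C genes are near-identical copies of one another and AKR1B10 has close relatives, so reads may have been split or lost between them, and their separate values are uncertain.

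PIR had 5.91, 5.47 and 4.76 CPM with both compounds, 4.64, 4.54 and 5.06 with SH4-54, 3.13, 3.94 and 4.15 with DEX and 3.35, 3.94 and 4.25 with no drug. PIR encodes pirin, a nuclear protein whose gene responds to NRF2. Its combination wells were above all DEX and no-drug wells and overlapped those of SH4-54. PIR was 42.9% higher with both compounds than with DEX (0.51 ± 0.13 (adjusted p = 0.00976)) and at 0.3 ± 0.13 (adjusted p = 0.34) with SH4-54 alone. AKR1B1 (aldose reductase) and CBR1 (carbonyl reductase) rose with DEX (0.28 ± 0.055 (adjusted p = 0.000691) and 0.12 ± 0.039 (adjusted p = 0.0183)). The CBR1 call was lost without DEX replicate 1 or no-drug replicate 1 or 2 (0.0532 to 0.0762). EPHX1, the microsomal epoxide hydrolase, was not called in any comparison of the full fit (without combination replicate 1 it was higher with both compounds than with DEX, adjusted p = 0.0406).

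Both stress effectors were lower with DEX and higher again with SH4-54 added, beside 23.2% and 13% of all tested genes. SQSTM1 had 399, 434 and 367 CPM with both compounds, 574, 576 and 593 with SH4-54, 264, 256 and 273 with DEX and 484, 490.4 and 492 with no drug. SQSTM1 encodes p62, an autophagy receptor that binds KEAP1 and can thereby release NRF2. The 4 groups did not overlap, with SH4-54 highest, no drug next, then both compounds and DEX lowest. SQSTM1 was 18.9% higher with SH4-54 (0.25 ± 0.047 (adjusted p = 0.0215)), fell by 45.9% with DEX (-0.89 ± 0.047 (adjusted p = 1.18e-09)) and was 51.2% higher with both compounds than with DEX (0.6 ± 0.047 (adjusted p = 2.1e-06)). The SQSTM1 call for SH4-54 alone was lost without any 1 of the 6 libraries compared (adjusted p = 0.0624 to 0.098), its value staying at 0.235 to 0.258. OSGIN1 had 6.84, 7.14 and 5.49 CPM with both compounds, 6.01, 5.41 and 5.6 with SH4-54, 3.87, 3.97 and 2.75 with DEX and 4.66, 5.34 and 5.13 with no drug. OSGIN1 is a growth inhibitor induced by oxidised lipids. The DEX wells were the lowest of the 12. OSGIN1 fell by 29.8% with DEX (-0.51 ± 0.14 (adjusted p = 0.00836)) and was 82.4% higher with both compounds than with DEX (0.87 ± 0.14 (adjusted p = 0.000546)). Without DEX replicate 3, the first of these was -0.344 (adjusted p = 0.054).

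The 3 efflux pumps, which export glutathione and glucuronide conjugates, each behaved differently. ABCC3 had 28, 29.6 and 40.1 CPM with both compounds, 23.5, 23.9 and 24.3 with SH4-54, 40.4, 39.9 and 41.1 with DEX and 25.9, 19.7 and 19.1 with no drug. The DEX wells were within 39.9 to 41.1 CPM, and combination replicate 3 was level with them while replicates 1 and 2 were nearer to the wells without DEX. ABCC3 was 87.2% higher with DEX (0.9 ± 0.12 (adjusted p = 2.17e-05)). DEX on top of SH4-54 gave 0.45 ± 0.12 (adjusted p = 0.00782) for ABCC3, or 0.266 without combination replicate 3. Both compounds against DEX gave -0.31 ± 0.12 (adjusted p = 0.0677) for ABCC3, not a call. It was called lower there without a count filter (0.0151), without no-drug replicate 1 (0.0357) and without combination replicate 3 (-0.505, adjusted p = 0.000981). ABCC2 had 2.33, 2.57 and 2.44 CPM with both compounds, 2.03, 1.73 and 2.35 with SH4-54, 1.55, 1.82 and 1.51 with DEX and 1.75, 1.49 and 1.93 with no drug. The combination wells of ABCC2 were above those of DEX and of no drug and overlapped those of SH4-54. Both compounds against DEX gave 0.59 ± 0.16 (adjusted p = 0.0131) for ABCC2, on 40 to 87 reads a library. That call was lost without DEX replicate 3 (0.0558) or combination replicate 2 (0.0524). ABCC1 fell with DEX (-0.42 ± 0.083 (adjusted p = 0.000772)) and was higher with both compounds than with DEX (0.24 ± 0.084 (adjusted p = 0.0436)), or 0.161 (adjusted p = 0.228) without DEX replicate 2. That ABCC1 call was also lost without any 1 of 7 further libraries.

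**Figure D3:**
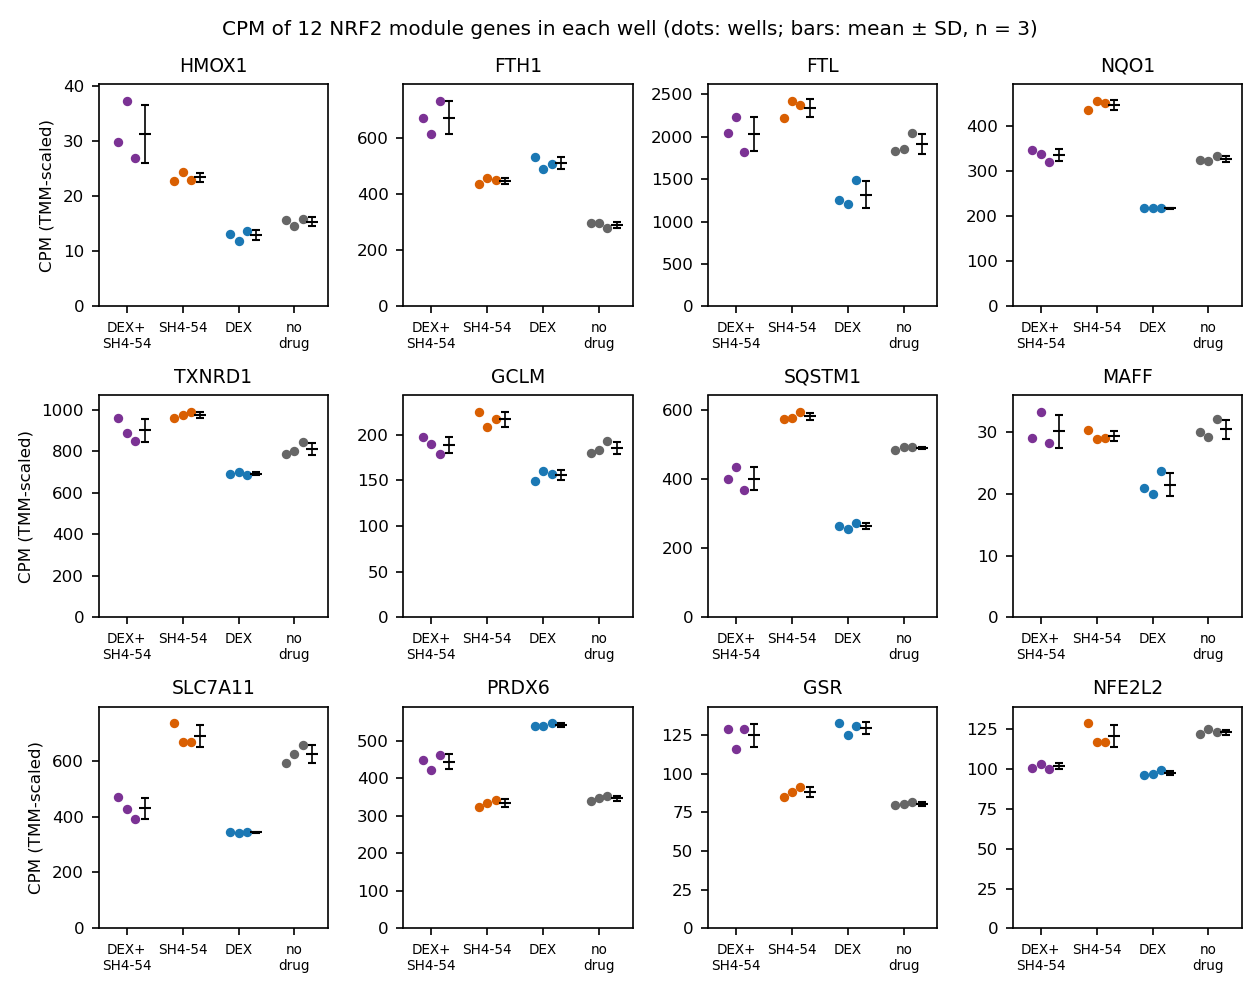
CPM of 12 NRF2 genes in each well (dots), with the mean and SD of the 3 wells of a group beside them; each panel has its own axis, which starts at 0. NQO1, TXNRD1, GCLM and SQSTM1 are highest with SH4-54 and lowest with DEX, whereas PRDX6 and GSR are higher in the wells with DEX.

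The effect of SH4-54 on the 39 genes was set beside itself in the absence and presence of DEX, 2 contrasts with no library in common. Of the 7 genes higher with SH4-54 alone, 6 were also higher when it was added to DEX (HMOX1, FTH1, GCLM, TXNRD1, NQO1 and SQSTM1), which are 6 of the 21 higher there. UGDH was the exception. Over the 39 genes the log2 fold changes had a Pearson correlation of 0.59 and a Spearman correlation of 0.54, and 29 had the same sign. Over all 14184 genes these correlations were 0.42 and 0.31, and 62.2% had the same sign. Of all tested genes, 0.268% were higher with SH4-54 alone and 13% when it was added to DEX. The share of all genes higher in both contrasts is not given here, so the overlap of calls has no scale. The change was larger in size with DEX present for 31 of the 39, against 68.5% of all genes. Genes measured in the same libraries are not independent, so no test is attached to these values.

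The effect of DEX in the absence and presence of SH4-54 was compared in the same manner. Of the 16 genes lower with DEX alone, 11 were also lower when it was added to SH4-54, and those are the 11 lower there. Of the 10 genes higher with DEX alone, 9 were among the 11 higher there. Of all tested genes, 23.2% were lower and 21.9% higher with DEX alone, and 20.3% and 20.1% on top of SH4-54. The shares of all genes called in both contrasts are not given here, so these overlaps have no scale. The correlation over the 39 genes was 0.81 (Pearson) and 0.8 (Spearman), with 31 of the same sign. Over all genes these were 0.76, 0.67 and 76.1%. The change was larger in size with SH4-54 present for 11 of the 39, against 44.1% of all genes. The 5 genes lower with DEX alone that were not called on top of SH4-54 were MAFF, FTL, SRXN1, AKR1C1 and OSGIN1.

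**Figure D4:**
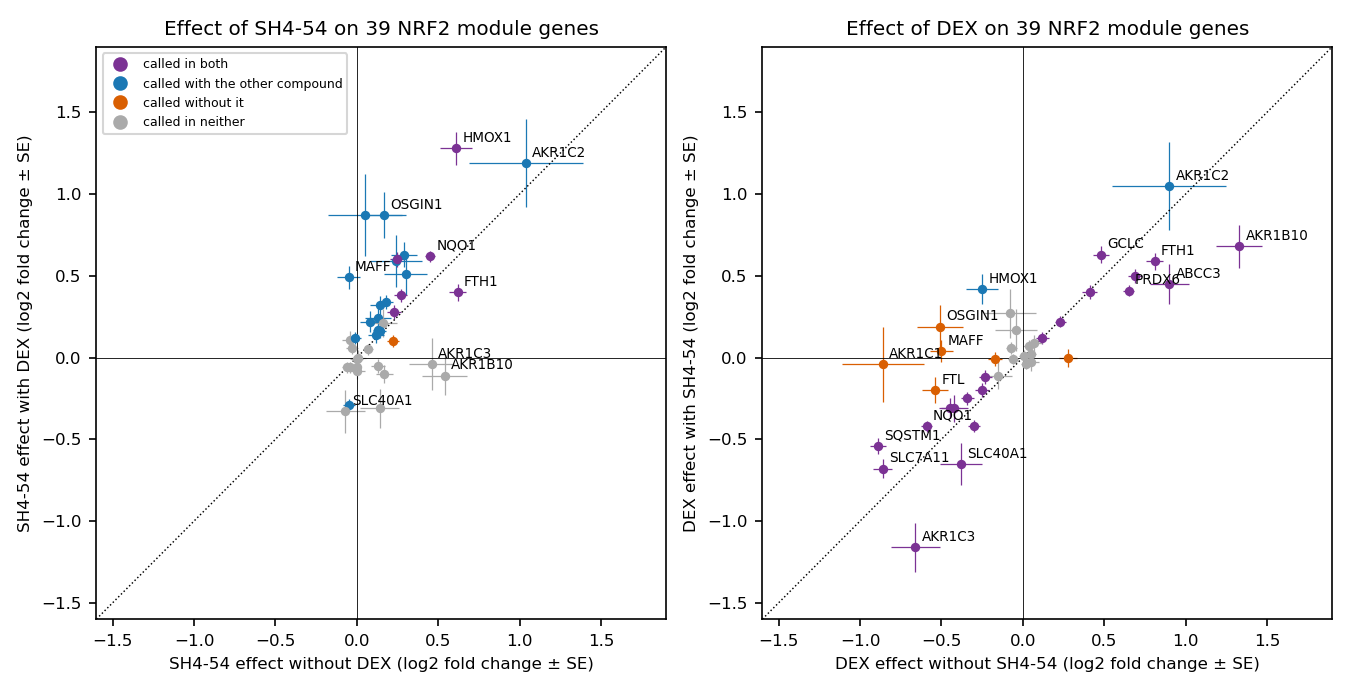
Log2 fold change ± SE of the 39 NRF2 genes for SH4-54 (left) and DEX (right), without the other compound (x axis) and with it (y axis); the dotted line marks equal effects and colours mark where a gene was called. HMOX1 (0.61 without and 1.28 with DEX) lies above the line on the left, and AKR1B10 (1.33 without and 0.68 with SH4-54) lies below it on the right.

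Whether the effect of SH4-54 differed with and without DEX was tested gene by gene as an interaction, the log2 fold change with DEX minus that without. It was positive and called for 3 of 39 genes (7.69%) and negative for 1 (2.56%), beside 2.44% and 1.46% of all tested genes. The difference was 0.67 ± 0.14 (adjusted p = 0.0181) for HMOX1, 0.54 ± 0.099 (adjusted p = 0.0111) for MAFF and 0.35 ± 0.066 (adjusted p = 0.0132) for SQSTM1. For PRDX6 it was -0.23 ± 0.05 (adjusted p = 0.0219). OSGIN1 (0.7 ± 0.19 (adjusted p = 0.0584)), NQO1 (0.17 ± 0.046 (adjusted p = 0.0569)), AKR1B1 (-0.28 ± 0.077 (adjusted p = 0.0604)), AKR1B10 (-0.65 ± 0.19 (adjusted p = 0.0704)) and FTH1 (-0.22 ± 0.074 (adjusted p = 0.109)) did not pass. By DESeq2, NQO1 and OSGIN1 passed as positive (adjusted p = 0.0351 and 0.0383), and AKR1B1 and FTH1 as negative (0.00756 and 0.0372). NQO1 also passed with a stricter count filter (0.0463). Without any count filter, OSGIN1 (0.0211) and FTL (0.0143) passed as positive. AKR1B10 (0.0363), AKR1B1 (0.0102), FTH1 (0.0423) and ABCC3 (0.0499) passed there as negative. Without combination replicate 3, OSGIN1, NQO1, AKR1B1, AKR1B10 and FTH1 all passed (0.00384 to 0.0214). For TXNRD1 and GCLM the difference was 0.11 ± 0.058 (adjusted p = 0.291) and 0.05 ± 0.06 (adjusted p = 0.675), so a larger response of these genes with DEX was not shown. The counts depended on single wells: without combination replicate 3 the test called 8 genes higher and 7 lower, beside 5.96% and 8.36% of all tested genes, and without DEX replicate 2 it called 1 higher (MAFF) and 1 lower (PRDX6), beside 0.768% and 0.606%. Without combination replicate 2 it called 3 and 1, beside 1.2% and 1.04%.

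Of 71 other genes of these pathways, 68 were tested. With SH4-54 alone, 1 of the 68 was higher (1.47%, beside 0.268% of all tested genes) and none lower. That gene was TRIM16, a ubiquitin ligase linked to NRF2 and p62, which had 41.9, 42.2 and 39.2 CPM with SH4-54, against 32.3, 35.6 and 33.1 CPM with no drug, without overlap (0.29 ± 0.054 (adjusted p = 0.0224)). With DEX, 22 were higher (32.4%) and 24 lower (35.3%), beside 21.9% and 23.2% of all tested genes. They included the efflux pump ABCG2 (-1.06 ± 0.046, adjusted p = 1.43e-10), the peroxidase GPX8 (-0.57 ± 0.032, adjusted p = 1.96e-09), the membrane glutathione transferase MGST1 (0.74 ± 0.053, adjusted p = 2.76e-08) and the efflux pump ABCC4 (0.57 ± 0.048, adjusted p = 1.81e-07). ABCG2 had 18.8, 19.1 and 18.6 CPM with DEX, against 39.5, 39.4 and 38.9 CPM with no drug. Both compounds against no drug gave 12 higher (17.6%) and 17 lower (25%), beside 21.1% and 21.6%, with ABCG2 at -0.92 ± 0.045 (adjusted p = 7.1e-10), GPX8 at -0.61 ± 0.032 (adjusted p = 1.29e-09), ABCC4 at 0.6 ± 0.048 (adjusted p = 1.17e-07) and the mitochondrial transhydrogenase NNT, which makes NADPH, at -0.6 ± 0.046 (adjusted p = 7.5e-08).

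When SH4-54 was added to DEX, 9 of the 68 were higher (13.2%), near the 13% of all tested genes, and 16 lower (23.5%, beside 13.5%). SLC3A2, the chaperone subunit that SLC7A11 needs to reach the cell surface, had 520.4, 532 and 436 CPM with both compounds, against 321, 315 and 339.9 CPM with DEX. Its wells did not overlap (0.61 ± 0.061 (adjusted p = 1.5e-05)), and TRIM16 was also higher (0.43 ± 0.056 (adjusted p = 0.000128)). The NADPH genes NNT (-0.35 ± 0.046 (adjusted p = 0.00012)) and IDH1, a cytosolic isocitrate dehydrogenase (-0.49 ± 0.07 (adjusted p = 0.000265)), were lower. When DEX was added to SH4-54, 10 were higher (14.7%) and 18 lower (26.5%), beside 20.1% and 20.3%, with ABCG2 at -0.94 ± 0.046 (adjusted p = 7.34e-10), GPX8 at -0.48 ± 0.032 (adjusted p = 2.12e-08), ABCC4 at 0.57 ± 0.048 (adjusted p = 2.38e-07) and the aldehyde dehydrogenase ALDH3A1 at -1.85 ± 0.19 (adjusted p = 2.39e-06). The interaction was called positive for 1 (1.47%, beside 2.44% of all tested genes), SLC3A2 (0.43 ± 0.086 (adjusted p = 0.0153)), and negative for 4 (5.88%, beside 1.46%), namely MGST1 (-0.38 ± 0.075 (adjusted p = 0.0143)), the glutathione transferase GSTK1 (-0.28 ± 0.06 (adjusted p = 0.0196)), the peroxiredoxin PRDX5 (-0.31 ± 0.076 (adjusted p = 0.0354)) and the fatty aldehyde dehydrogenase ALDH3A2 (-0.31 ± 0.082 (adjusted p = 0.0475)). The median log2 fold change of the 68 genes was 0 for SH4-54 and -0.03 for both compounds against DEX.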

How the data were processed

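Total RNA of 12 wells was sequenced as 50-base single-end reads from stranded libraries after removal of ribosomal RNA, per the labels' protocols. The authors deposited 1 table of raw read counts per gene symbol. The submitters' processing notes name HISAT2 2.1.0, SAMtools and featureCounts 1.5.1, with hg19 and GRCh37 as builds. Annotation, strand setting and the rule for multi-mapping reads: not given in the sources used here. Overlapping genes and near-identical copies are therefore uncertain. Groups and replicate numbers follow the sample titles, since 1 label spells SH4-54 as SH5-54.

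Tests used edgeR 4.0.16 under R 4.3.3 (filterByExpr by group, TMM scaling, 1 quasi-likelihood model of the 4 groups over all 12 libraries, 8 residual degrees of freedom), checked on simulated data. P-values were adjusted by Benjamini-Hochberg over 14184 genes at a threshold of 0.05. Standard errors were obtained by dividing the log2 fold change by the root of the F statistic. Of the 26364 rows, 4474 were at 0 in every library. The 40 genes and the lists of other pathway genes were chosen with earlier results of these data known. Values in every library are given for NFE2L2, KEAP1 and, among called genes without overlap, the 10 with the largest change with SH4-54, with DEX, with both compounds against DEX and in the interaction; of the other pathway genes, up to 4 per comparison by smallest p. Comparisons share libraries, so their counts are not independent. Alternatives were DESeq2 1.42.0, its size factors, other count filters, the compared groups alone, a replicate block, scaling without the 10 genes of highest count, and each library left out. Promoter sequences came from RefSeq (GRCh38.p14), whose coordinates were not joined to the counts.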

Additional observations from a re-analysis of the deposited data

Results flagged for a closer look

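The change with SH4-54 differed between cells with and without DEX for 4 of the 39 genes, by edgeR's test of the interaction with p-values adjusted over all genes. The difference was positive for 3 (7.69%) and negative for 1 (2.56%), beside 2.44% and 1.46% of all tested genes. The change with DEX present minus that without was 0.67 for HMOX1, 0.54 for MAFF and 0.35 for SQSTM1 on the log2 scale, and -0.23 for PRDX6. HMOX1 was higher in 3 of 3 wells under each contrast, with log2 fold changes of 1.28 ± 0.099 with DEX and 0.61 ± 0.098 without. MAFF was at 0.49 ± 0.071 with DEX and -0.05 ± 0.069 without, and SQSTM1 at 0.6 ± 0.047 and 0.25 ± 0.047. PRDX6 was at -0.29 ± 0.035 with DEX and -0.05 ± 0.036 without. The HMOX1 call was lost without DEX replicate 2 (adjusted p = 0.064) or no-drug replicate 3 (0.0535), that of SQSTM1 without DEX replicate 2 (0.0511), and that of PRDX6 without SH4-54 replicate 2 or 3 or no-drug replicate 2 (0.0527 to 0.0591). The call of MAFF held in all 12 fits that left out a library.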

How the results depend on the processing

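No fold change of a gene called in a comparison turned its direction under any alternative. With 1 library left out, the number of the 39 genes higher with SH4-54 ran from 3 (without no-drug replicate 2) to 10, beside 7 in the full fit. The number lower with both compounds than with DEX ran from 1 to 3, and was 2 without a count filter and 2 in a fit of the compared groups alone, beside 1. Positive interactions ran from 1 to 8, and were 5 by DESeq2 and 5 without a count filter, beside 3. Negative interactions ran from 0 to 7, and were 3 by DESeq2 and 5 without a count filter, beside 1. The correlation of the SH4-54 changes with and without DEX ran from 0.51 to 0.65. The cause of these shifts was not tested. All other counts of the 39 genes stayed within 1.5 times. Over all genes, SH4-54 against no drug gave 38 higher and 47 lower, against 76 and 109 by DESeq2, 82 and 94 without a count filter, 70 and 82 in the compared groups alone, and 19 and 11 without no-drug replicate 2 up to 72 and 93 without combination replicate 3. Negative interactions over all genes numbered 207, against 370 by DESeq2 and 389 without a count filter. Positive and negative ones numbered 346 and 207 in the full fit, 845 and 1186 without combination replicate 3, and 109 to 309 and 68 to 210 without any 1 of the 11 other libraries, lowest without DEX replicate 2 (109 and 86) and SH4-54 replicate 2 (141 and 68). Genes higher with both compounds than with DEX numbered 1851, against 923 without combination replicate 2.

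No shared signal of same-numbered wells was seen, which cannot show whether the wells were handled in pairs. Deviations of same-numbered wells correlated between -0.097 and 0.093. In none of the 5 pairs of groups did every well correlate best with its own number. With the number as a replicate block, 6 genes of the 39 were higher with SH4-54 and 20 with both compounds against no drug, and the other counts were those of the full fit. The median standard error of a log2 fold change was 0.0636 for SH4-54 and 0.09 for the interaction, which bounds the changes that 3 wells a group can show.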
